A study of Caenorhabditis elegans with 6 samples.

Results

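The pud genes of Caenorhabditis elegans are a family of 6 genes, pud-1.1, pud-1.2, pud-2.1, pud-2.2, pud-3 and pud-4, and they are described here in hs::ΔNTbar-1 and hs::control larvae. Their probe sets were taken as those that name at least 1 of the 6 genes in the annotation of the Affymetrix C. elegans genome array. This gave 4 of the 22548 probe sets that are not array controls. pud-3 and pud-4 each have a probe set of their own. A shared probe set reads pud-1.1 together with pud-1.2, and another reads pud-2.1 together with pud-2.2. The copies within a pair therefore cannot be told apart. Membership follows the gene names, but the family was picked on its higher signal in hs::ΔNTbar-1 animals on these same arrays, so every comparison of the pud signals between the groups is a description and carries no test.

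The name pud is short for protein up-regulated in daf-2 mutants. DAF-2 is the insulin/IGF-1 receptor of the worm, which restrains the FOXO transcription factor DAF-16, and the long-lived daf-2 mutants contain far more of the small soluble proteins PUD-1 and PUD-2 than wild-type animals do. pud-1.1 and pud-1.2 are duplicate genes for PUD-1, and pud-2.1 and pud-2.2 are duplicate genes for PUD-2. PUD-1 and PUD-2 bind each other as a heterodimer, are found mainly in intestine and hypodermis, and have no known biochemical activity. PUD-3 and PUD-4 are their homologs.

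RNA came from whole larvae of 2 strains at the L2/L3 molt, the labels giving the stage as young L3, and each strain was measured on 3 arrays that the methods describe as biological replicates. hs::ΔNTbar-1 animals carry the integrated array huIs7, which expresses Myc-tagged BAR-1 beta-catenin without its amino terminus from the hsp16.2 heat shock promoter. The hs::control line has the integrated array deIs14, made from the heat shock vector without an insert. Both arrays also hold mec-7::GFP and a dpy-20(+) plasmid, deIs14 was made in a dpy-20 mutant, and each condition is a single line. All 6 samples were heat-shocked for 30 min (38° in the methods and 30° in the labels) after 24 hr of growth and recovered for 60 min, so no sample shows the pud genes without heat shock, and a fixed difference between the lines cannot be told apart from a response to ΔNTBAR-1.

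The values are linear MAS 5 signals, a measure of hybridization per probe set that the authors scaled to the same trimmed mean of 500.2 on each array. The median signal was 130.9 to 144.8, and between 43.1% and 45.6% of probe sets were under 100 on each array. The bar-1 probe set, which checks the labels, gave 7754.9, 20991.2 and 16009.4 in the hs::ΔNTbar-1 samples (replicates 1, 2 and 3), against 519.5 to 586.3 in the hs::control samples. Log2 fold changes were computed from log2(signal + 16) with limma over all 22548 probe sets, and a call is a Benjamini-Hochberg adjusted p under 0.05. With 3 arrays a group, the smallest p that exact permutation of a single value can reach is 0.1.

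The study designed qPCR primers for 3 of the 6 genes under their sequence names, pud-2.2 as F15E11.14, pud-3 as F15E11.15 and pud-4 as F15E11.12. They are printed, in lower case throughout, because they show for which members the study listed primers under a sequence name. Whether the pud-2.2 primers also match its duplicate pud-2.1 was not tested. All 3 genes lie on chromosome V. The longest run of bases shared by primers of these 3 different genes is 6.
pud-2.2 forward: aatcaaacagattgagacaaacttagacga
pud-2.2 reverse: cttgattactgtagtttgggcatgg
pud-3 forward: acttcgacggatgactgctc
pud-3 reverse: ccagaatcattggtttgttcc
pud-4 forward: tagagtatgctggaaaggatggaa
pud-4 reverse: ccactttgcgaaatgaattg

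All 4 pud probe sets gave more signal in hs::ΔNTbar-1 animals, by 2.81-fold to 3.91-fold as a ratio of mean signals. At each of them the groups were fully separated, with the 3 hs::ΔNTbar-1 arrays on top, an arrangement found at 10.7% of all probe sets. All 4 were also called higher in the fit over all probe sets, against 0.408% of those tested. With any 1 array left out, 1 to 2 of the 4 were called, and the PUD-2 and pud-4 probe sets were not among them (adjusted p = 0.0518 to 0.0702 and 0.0560 to 0.0774 in limma). They also met the criteria of the study's methods (a mean change of at least 2-fold and a p of at most 0.05 in an analysis of variance, with the direction shared by at least 2 of 3 arrays), as did 0.705% of probe sets in this direction. Nothing is read from these counts, since the family was picked with this contrast known. The median log2 fold change was 1.74 over the 4 probe sets and 0.00 over all probe sets, which is likewise a description.

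The PUD-1 genes were read by the probe set 177131_s_at. Its signal in hs::ΔNTbar-1 animals was 5415.1 for replicate 1, 4802.1 for replicate 2 and 5072.8 for replicate 3, and in hs::control animals it was 1736.8, 1739.2 and 1578.4. The groups were far apart, the lowest hs::ΔNTbar-1 array being 2.76-fold above the highest hs::control array. Its mean was 5097 ± 307 (SD, n = 3 arrays) against 1685 ± 92.2, a log2 fold change of 1.59 (standard error 0.11). Of the 4 probe sets it had the smallest standard error.

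The PUD-2 genes, whose product pairs with PUD-1, were read by 186492_s_at. In the same order of replicates, the signal was 12674.1, 9511 and 10848.8 with ΔNTBAR-1, and 4084.6, 3828.8 and 3845.2 with the empty vector. The hs::control arrays were close together and the hs::ΔNTbar-1 arrays were spread, with coefficients of variation of 3.65% and 14.4%. The means were 11011 ± 1588 (SD, n = 3 arrays) and 3920 ± 143 (log2 fold change 1.48, standard error 0.14), and the lowest hs::ΔNTbar-1 array was 2.33-fold above the highest hs::control array.

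pud-3, the homolog beside pud-2.2, was read by 175239_at, which names no other gene. The 3 hs::ΔNTbar-1 arrays read 1582.3, 1306.9 and 1371.3, and the 3 hs::control arrays read 375.7, 406.5 and 307. The lowest hs::ΔNTbar-1 array was 3.22-fold above the highest hs::control array. The means were 1420.2 ± 144 (SD, n = 3 arrays) and 363 ± 50.9, and the log2 fold change, 1.93 with a standard error of 0.15, ranked 23 of 22548 probe sets.

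pud-4, the other single-copy homolog, was read by 186519_at. Its signal was 1006.3, 723 and 807.3 in hs::ΔNTbar-1 larvae, against 225, 251.4 and 172.2 in hs::control larvae. This probe set varied most in relative terms, with coefficients of variation of 17.2% and 18.7%, yet its lowest hs::ΔNTbar-1 array was still 2.88-fold above its highest hs::control array. The means were 846 ± 145 (SD, n = 3 arrays) and 216 ± 40.3, for a log2 fold change of 1.89 (standard error 0.19).

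**Figure D1:**
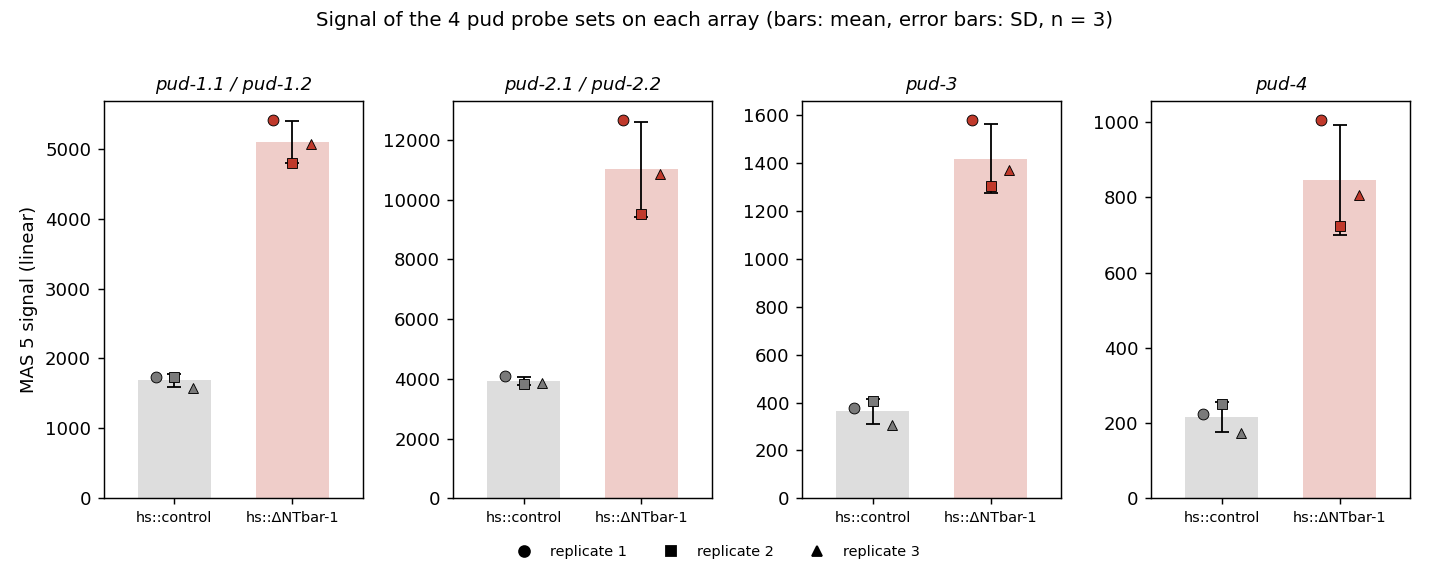
MAS 5 signal on a linear axis for each of the 4 pud probe sets, with hs::control in grey and hs::ΔNTbar-1 in red; symbols are the 3 replicates, bars the mean and error bars the SD. At every probe set the 3 hs::ΔNTbar-1 arrays lie above the 3 hs::control arrays, and replicate 1 is the highest of the hs::ΔNTbar-1 arrays.

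The size of the difference was compared between members within each array. Each array's log2 signal was set against the mean of the hs::control arrays for the same probe set, and these values were subtracted between probe sets on the same array. pud-3 and pud-4 could not be separated, since pud-3 minus pud-4 was -0.07, 0.13 and 0.04 on the hs::ΔNTbar-1 arrays and -0.05 to 0.07 on the hs::control arrays. The PUD-1 and PUD-2 probe sets could not be separated either, with differences of -0.01, 0.23 and 0.12 on the hs::ΔNTbar-1 arrays that overlapped the -0.07 to 0.08 of the hs::control arrays. The excess over the hs::control mean was larger for pud-3 than for the PUD-2 probe set on each hs::ΔNTbar-1 array, by 0.40, 0.54 and 0.42 on the log2 scale, and these values lay outside those of the hs::control arrays. Over the members as a whole, the mean excess of pud-3 and of pud-4 over either shared probe set was between 0.31 and 0.45. The largest was that of pud-3 over the PUD-2 probe set. The PUD-1 probe set and pud-4 were barely separated. PUD-1 minus pud-4 was -0.48, -0.18 and -0.26 on the hs::ΔNTbar-1 arrays and -0.17 to 0.20 on the hs::control arrays. These are differences between probe sets. The shared ones each pool 2 genes and were brighter, at signal percentiles of 95.5 and 98.0 against 83.6 for pud-3 and 74.7 for pud-4. Whether the genes themselves differ in the size of their change was not tested.

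The 4 probe sets shared an order of arrays in hs::ΔNTbar-1 animals but not in hs::control animals. Among the hs::ΔNTbar-1 arrays, replicate 1 was highest, replicate 3 was in the middle and replicate 2 was lowest at all 4 probe sets, an order seen at 14.4% of all probe sets. Relative to the group mean, replicate 1 was 0.18 higher and replicate 2 was 0.15 lower in mean log2 signal over the 4 probe sets. Among the hs::control arrays, replicate 2 was highest and replicate 3 lowest at the PUD-1 genes, pud-3 and pud-4, an order seen at 14.5% of all probe sets that rests on 1739.2 against 1736.8 at the PUD-1 genes. The PUD-2 probe set had replicate 1 highest and replicate 2 lowest.

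Within the hs::ΔNTbar-1 group, the order of the arrays at the pud probe sets was the reverse of that at bar-1. bar-1 was lowest on replicate 1, where all 4 pud probe sets were highest, and highest on replicate 2, where all 4 were lowest. With 3 arrays no correlation was computed. The bar-1 signal is RNA and not protein, and whether the pud signals depend on the amount of ΔNTBAR-1 was not tested. The heat shock genes hsp-16.2 and hsp-16.41, which encode small chaperones, varied widely and overlapped between the groups. The hsp-16.2 signal was 3268.7, 6171.6 and 5526.9 with ΔNTBAR-1 and 5147.8, 1742.2 and 2770.9 with the empty vector. The log2 fold changes of hsp-16.2, hsp-16.41 and hsp-70, the 3 heat shock genes with an own probe set, were 0.72, 0.57 and 0.60 (adjusted p = 0.537, 0.419 and 0.882 in limma). The hsp-70 value has a standard error of 1.25. Its signal was 134.3, 1545.7 and 268.8 with ΔNTBAR-1 and 1383.7, 98.5 and 103.8 with the empty vector, so replicates of the same group differed widely. Among the hs::ΔNTbar-1 arrays, hsp-16.2 and hsp-70 had the same order as bar-1, which was seen at 17.6% of all probe sets. The pud order was therefore also the reverse of theirs. In contrast, hsp-16.41 was highest on replicate 3. The part of heat shock in the pud signals was not tested.

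The 6 pud genes are consecutive in the RefSeq order of chromosome V (assembly WBcel235), with 0 other genes between them. Their order is pud-1.2, pud-2.2, pud-3, pud-4, pud-2.1 and pud-1.1, so that the duplicate pairs flank pud-3 and pud-4 in mirrored order. pud-1.2 has the sequence name Y19D10B.7, and the other members are F15E11.14, F15E11.15, F15E11.12, F15E11.1 and F15E11.13 in the same order. The 5 genes on either side are mostly irld genes, which encode proteins with the L domain of insulin and EGF receptors, or their pseudogenes.

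None of these 10 neighbouring genes was called, against 0.674% of all probe sets called in either direction. They were read by 9 probe sets, and all 9 had a mean signal under 100 in both groups. Next to pud-1.2, the uncharacterized gene Y19D10B.6 gave 14.2, 15.3 and 16.9 on the hs::ΔNTbar-1 arrays and 0.5, 18.9 and 2.9 on the hs::control arrays, which overlap (limma log2 fold change 0.51, SE 0.28, adjusted p = 0.504). Next to pud-1.1, irld-32 shares a probe set with irld-28, and its signal was 13.4, 27.6 and 31.2 against 29.3, 34.4 and 6.8 (limma log2 fold change 0.07, SE 0.35, adjusted p = 0.952). At this signal a difference of the size seen at the pud genes would be hard to detect, so the result does not show that the neighbours were equal in both groups. At p under 0.05 without adjustment the number of neighbouring probe sets was also 0.

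**Figure D2:**
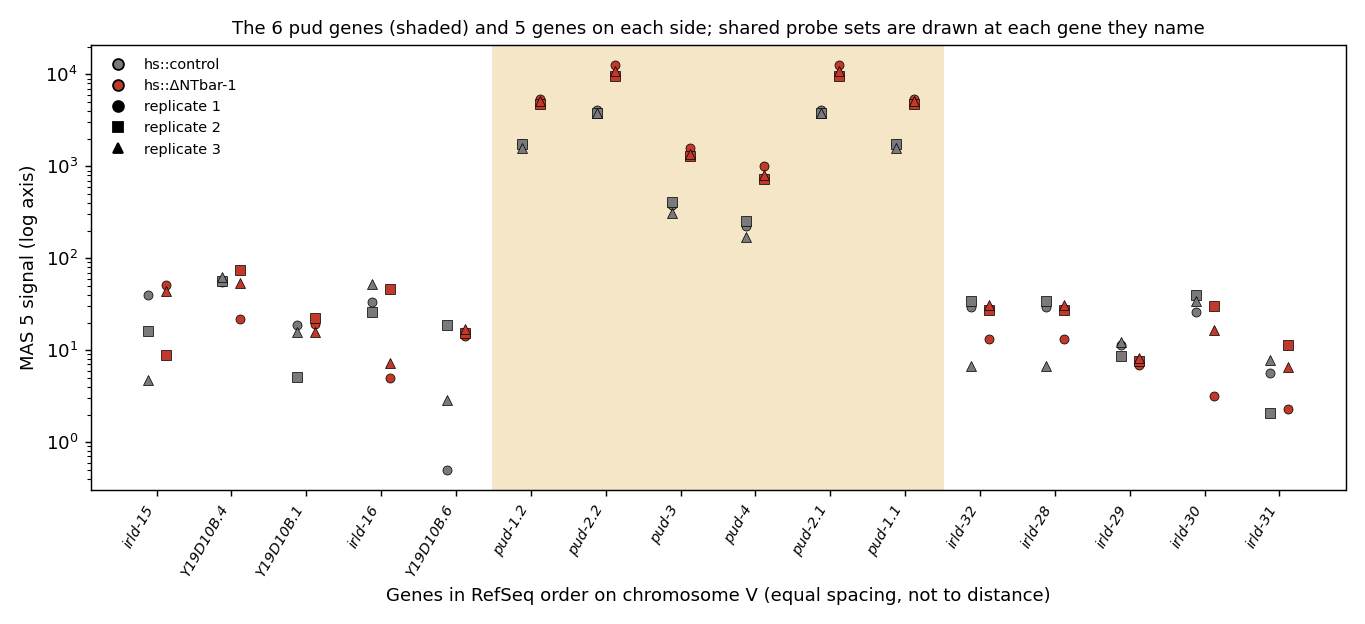
MAS 5 signal on a log axis for the 6 pud genes (shaded) and the 5 genes on each side, in RefSeq order with equal spacing; grey is hs::control, red is hs::ΔNTbar-1 and symbols are the 3 replicates. The groups separate at all 4 pud probe sets, of which the 2 shared ones are drawn at both genes they name, while the 9 probe sets of the flanking genes have group means under 100; signal depends on the probes, so levels of different genes should not be compared.

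Other known output genes of the insulin pathway were listed together, whichever way DAF-16 moves each of them. A mix of directions within the list is therefore not a result. Of 31 listed genes 25 had a probe set of their own. Among those left out was dod-21, whose probe set is shared with cld-1. That probe set was called higher (log2 fold change 1.38, adjusted p = 0.0112 in limma) and is not in the counts that follow. dod-23 and dao-4 rose, lys-7 and dod-19 fell, and 21 were not called (12 of the 25 had an unadjusted p under 0.05, as did 13.9% of all genes), against 0.729% called in either direction among 17138 genes. The median log2 fold change of the list was 0.06, against 0.00 over all genes, and 14 of the 25 values were above 0. Because the list was not split by the direction in which DAF-16 moves each gene, neither value measures the output of the pathway. The study had picked dod-21, dod-23 and dao-4 as changed on these arrays, so their direction is not independent evidence.

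dod-23, whose name stands for downstream of DAF-16, read 302.5, 315.1 and 326.9 in hs::ΔNTbar-1 larvae and 74.2, 58.6 and 58.1 in hs::control larvae. The groups did not overlap, and limma gave a log2 fold change of 2.06 ± 0.12 (standard error) with an adjusted p of 0.00468. dao-4, named for overexpression in dauers and aging adults, gave 178.6, 156.3 and 111 against 26, 11.6 and 19.9, again without overlap (2.23, SE 0.22, adjusted p = 0.0150 in limma). The call of dao-4 held only without hs::ΔNTbar-1 replicate 3 when an array was left out (adjusted p = 0.0486), and it was lost without hs::ΔNTbar-1 replicate 1 (0.0802) or 2 (0.0860) and without hs::control replicate 1 (0.0572), 2 (0.0684) or 3 (0.0663).

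lys-7, a lysozyme gene of the intestine, fell from 5477 ± 237 (SD, n = 3 arrays) to 2317 ± 160 (limma log2 fold change -1.24, SE 0.11, adjusted p = 0.0114). dod-19 fell from 7840 ± 412 to 4716 ± 22.7 (-0.73, SE 0.10, adjusted p = 0.0475 in limma). Leaving out any 1 of the 6 arrays ended both calls, with an adjusted p of 0.0560 to 0.0732 for lys-7 and 0.121 to 0.170 for dod-19. The classical DAF-16 targets sod-3, a superoxide dismutase gene, and mtl-1, a metallothionein gene, were at 0.72 (adjusted p = 0.190) and 0.02 (adjusted p = 0.978). ftn-1, a ferritin gene, was at 1.01 (adjusted p = 0.0820). In the other direction, icl-1 was at -0.66 (adjusted p = 0.154 in limma) and scl-1 at -0.88 (adjusted p = 0.251 in limma). Of the 25 measured genes, 6 were higher on all 3 hs::ΔNTbar-1 arrays than on all 3 hs::control arrays, and 7 were lower. Among all 17138 genes these numbers were 1884 and 1804.

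Of 16 genes of the insulin pathway itself, 0 were called by limma, a count close to what the 0.729% over all genes would give. The receptor gene daf-2 was at a log2 fold change of -0.33 (SE 0.24, adjusted p = 0.612), and the FOXO gene daf-16 at -0.03 (adjusted p = 0.922). pqm-1, whose zinc finger product acts opposite DAF-16 on many output genes, was at -0.04 (adjusted p = 0.908), and the highest value in the list was 0.35 for the kinase gene pdk-1 (adjusted p = 0.265). Without adjustment 2 of the 16 genes had a p under 0.05, as did 13.9% of all genes, pdk-1 and the insulin receptor substrate gene ist-1 at -0.32. Transcript levels do not report the activity of these proteins.

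**Figure D3:**
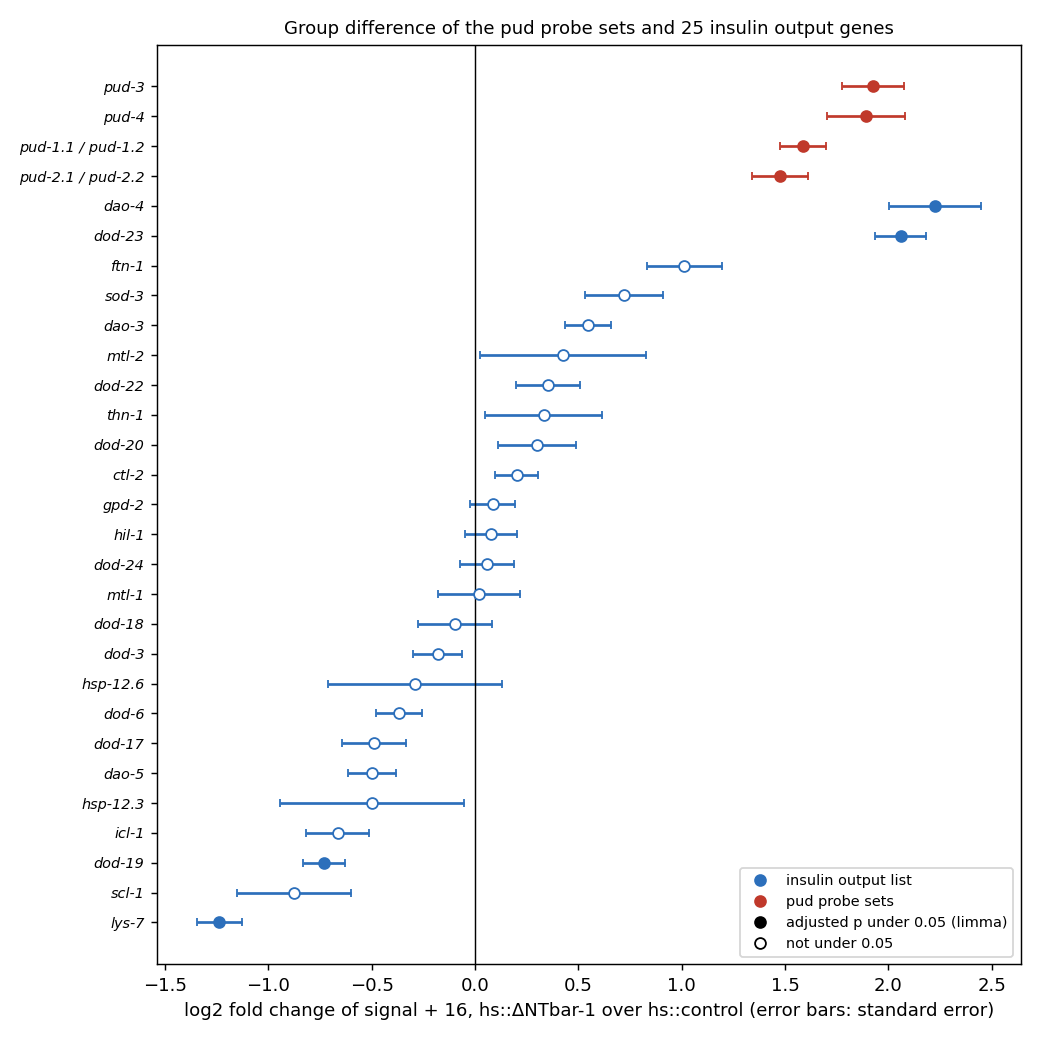
Log2 fold change of signal + 16 (hs::ΔNTbar-1 over hs::control) with its standard error for the 4 pud probe sets in red and 25 insulin output genes in blue; filled points have an adjusted p under 0.05 in limma. The pud probe sets lie between 1.48 and 1.93, and the list spreads from -1.24 (lys-7) to 2.23 (dao-4).

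Because the samples are whole larvae, fewer cells of a type and less RNA per cell cannot be told apart. Markers of hypodermis and intestine, where PUD proteins are found, were present, and their summed signals differed between the groups in opposite directions. The summed signal of 9 hypodermis markers was 56865 to 63422 on the hs::ΔNTbar-1 arrays and 43860 to 50930 on the hs::control arrays, while that of 10 intestine markers was 70659 to 77241 and 80330 to 81585. Among them 0 were called by limma, although 5 hypodermis and 2 intestine markers had an unadjusted p under 0.05, and log2 fold changes ran from -0.64 for the peptide transporter gene pept-1 (adjusted p = 0.170) to 0.58 for the collagen gene rol-6 (adjusted p = 0.172). Over all 17138 genes 0.729% were called and 13.9% had an unadjusted p under 0.05. The median log2 fold change was 0.08 over the hypodermis list and -0.14 over the intestine list. Values above 0 were found for 6 of the 9 hypodermis markers and 1 of the 10 intestine markers, against 8591 of the 17138 genes. Most of the hypodermis sum came from the collagen genes sqt-3, with a mean of 31937 against 25933, and dpy-5, with 14800.3 against 10020. Bright markers also weighed most in the intestine sum, and they did not all go down. The means were 26404 against 28846 for asp-1 and 11719.5 against 13359 for cpr-1, but 14494 against 13297 for act-5. The hypodermal transcription factor genes elt-1 and lin-26 were at -0.05 and -0.02, and elt-3 was lower on all 3 hs::ΔNTbar-1 arrays (-0.56, adjusted p = 0.116). The summed signal of 4 pharynx markers was 13656 to 15618 on the hs::ΔNTbar-1 arrays and 17049 to 18339 on the hs::control arrays, and the sums of 5 body wall muscle, 5 neuron and 5 germ line markers overlapped between the groups, again with 0 calls. No marker of these lists had a mean signal under 20 over the 6 arrays, although the neuron marker unc-31 was at 12.7 on the hs::control arrays and 30.6 on the hs::ΔNTbar-1 arrays. The summed signal of 14 molting genes overlapped, at 42899 to 52658 and 41899 to 47158, with 0 called. Of the 14, 5 were higher on all 3 hs::ΔNTbar-1 arrays, as were 11% of all genes, among them mlt-10 at a log2 fold change of 1.13 (adjusted p = 0.130 in limma), and fbn-1 was lower on all 3 (-0.58, adjusted p = 0.177). The part of these shifts in the pud signals was not tested.

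The genes whose profile over the 6 arrays was nearest to the mean pud profile were sought among 11971 probe sets of single genes outside the family with a mean signal of at least 100. Nearness was the root mean square difference between centred log2 profiles, which was 0.09 to 0.15 for the pud probe sets themselves. The nearest gene was ugt-19, of a UDP-glucuronosyltransferase (0.11, Pearson's r = 0.99 over 6 arrays), followed by oac-29, of an O-acyltransferase (0.14), T26E4.4 (0.14) and T22D1.3 (0.14). For ugt-19 the signal was 397.4, 333.2 and 355 in hs::ΔNTbar-1 larvae and 100.1, 127.8 and 78 in hs::control larvae, in the same order of arrays within each group as pud-3. The remaining 6 of the 10 nearest were F07A11.4, clc-11, the collagen gene col-38, glf-1, of a UDP-galactopyranose mutase, Y37H2A.14 and dod-23, at 0.18 to 0.23. All 10 differ between the groups by a similar amount, which over 3 arrays against 3 sets most of this likeness. With Pearson's r as the measure, 1 of the 10 nearest genes was shared, glf-1.

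**Figure D4:**
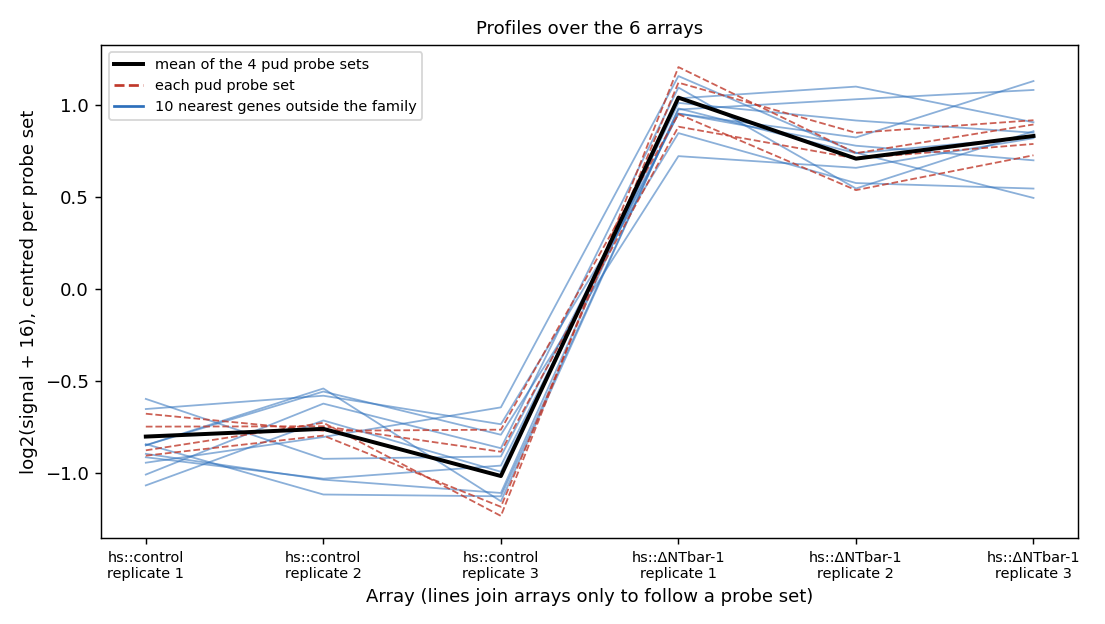
Log2(signal + 16), centred for each probe set, on the 3 hs::control and 3 hs::ΔNTbar-1 arrays for the mean of the 4 pud probe sets (black), each pud probe set (red, dashed) and the 10 nearest genes outside the family (blue). All lines step up between the groups, and the mean pud profile is highest on hs::ΔNTbar-1 replicate 1.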

How the data were processed

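Whole-worm RNA was measured on 6 Affymetrix arrays, 3 per group. The authors deposited linear signal intensity values of 22625 probe sets. The methods name MAS 5 software (detection calls) and RMA in Partek (statistics). RMA gives log2 values and these are linear with an equal trimmed mean, which points to per-array scaled MAS 5 signal, and they were treated as such. Groups came from the genotype label and replicate numbers from the array names. After removal of 77 array controls, 22548 probe sets were tested, of which 20766 carry 1 gene name, 887 several and 895 none. By gene identifier, 20701 matched RefSeq symbols. A listed gene is given by its own probe set of highest mean signal. No coordinates were used, since the sources used here do not tie the array to a genome build.

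log2(signal + 16) was tested with limma 3.58.1 in R 4.3.3, two-sided, with no filter or block, and the steps were tested on simulated data. The number of arrays limits the precision. No pair of arrays shared more than 0.297% of values. The members, the lists (insulin output and core, heat shock, molting and markers of 6 cell types), the tests and the naming rules were chosen with earlier results of these data known. Named genes are the family, bar-1, up to 5 genes on each side, the 10 nearest profiles and called list members. ftn-1, sod-3, mtl-1, icl-1, scl-1, dod-21, daf-2, daf-16, pqm-1, pdk-1, ist-1, rol-6, pept-1, asp-1, act-5, cpr-1, mlt-10, sqt-3, dpy-5, elt-1, elt-3, lin-26, unc-31, fbn-1, hsp-16.2, hsp-16.41 and hsp-70 were named after their values were seen. Of 9 listed heat shock genes 3 had an own probe set, with 0 calls and 0 at an unadjusted p under 0.05.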

Additional observations from a re-analysis of the deposited data

How the results depend on the processing

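The 4 pud probe sets kept their direction in each alternative that gave a log2 fold change. All 4 remained called with quantile normalization, median centring, pseudocounts of 1 and 64, removal of dim probe sets (the lowest 40% by mean signal), and a trended and robust variance. With only probe sets of a type specific to a single gene, 2 of 2 were called (pud-3 and pud-4), and 89 in all. With 1 array left out, 1 to 2 were called: the PUD-1 probe set each time, pud-3 when the missing array was replicate 1 of hs::ΔNTbar-1 or replicate 2 or 3 of hs::control, and neither the PUD-2 probe set nor pud-4. The log2 fold changes then ran from 1.54 to 1.63 for the PUD-1 genes, 1.37 to 1.58 for the PUD-2 genes, 1.82 to 2.01 for pud-3 and 1.75 to 2.003 for pud-4. As log2 ratios of mean signals with no pseudocount, an alternative added after seeing the data, the values were 1.597, 1.49, 1.97 and 1.97.

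Calls over all probe sets numbered 152, and 89 with a pseudocount of 1, 389 with 64, 635 without dim probe sets, 833 with the trended variance, 282 by the methods' criteria and 23 to 44 with 1 array left out. Of the insulin output genes, 2 were called higher, and 1 with a pseudocount of 1, 4 with 64, 4 without dim probe sets, 4 with the trended variance, 3 by the methods' criteria and 1 to 2 with 1 array left out. Also 2 were called lower, and 1 with quantile normalization, a pseudocount of 1 or the methods' criteria, 4 without dim probe sets, 5 with the trended variance, and 0 with 1 array left out. With gene-specific probe sets, 13 genes of the list were measured and 0 were called lower. The probe sets of lys-7 and dod-19 are not of that type and were not in that fit, so this 0 says nothing about them. The cause of the other changes was not tested. No insulin core gene or pud neighbour was called under any alternative, the neighbours being too dim for the fit without dim probe sets.

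Replicate numbers are only names here: same-numbered arrays deviated from their group means with r of 0.07, -0.02 and 0.07, and hs::ΔNTbar-1 replicates 1 and 3, but not 2, correlated best with the array of their own number. With the replicate block, 2 probe sets were called in all, 0 of the 4 pud probe sets (log2 fold changes 1.59, 1.48, 1.93 and 1.89 with adjusted p of 0.111, 0.118, 0.111 and 0.131 in limma), and 0 insulin output genes in either direction. Low signal limits what can be said of the neighbours of the pud genes, whose group means all lay under 100.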
